A study of Mus musculus with 4 samples.

Results

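The enzymes examined here make and break down leukotrienes and prostaglandins, lipid signals derived from arachidonic acid. They were chosen by name, with earlier results of these data known. Of the 10 symbols, 9 were matched among the 14519 genes of the table: Pla2g4a, Alox5, Alox5ap, Lta4h, Ltc4s, Ptgs1, Hpgds, Ptges and Hpgd. Ptgs2 is not analysed here. RNA came from mouse colonic epithelium, from cells sorted for Reg4-dsRed (deep crypt secretory cells, written DCS, and Reg4+ DCS in the plots) or for Lgr5-GFP (the stem cells of the crypt base, written Lgr5+), with 2 libraries per population. The sources used here give no strain, age or sex, and no number of animals per sort. Expression was given as RPM, reads scaled to a common library total, from CEL-seq, which reads the 3′ ends of transcripts.

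Arachidonic acid is cut from membrane phospholipids by cytosolic phospholipase A2 and then enters one of several routes. In the lipoxygenase route, 5-lipoxygenase and its membrane partner make leukotriene A4, which a hydrolase turns into leukotriene B4 or a glutathione-adding synthase into leukotriene C4. In the cyclooxygenase route, prostaglandin H2 is formed first and is converted by separate synthases into prostaglandins D2 and E2, which 15-hydroxyprostaglandin dehydrogenase inactivates. In the intestinal epithelium, tuft cells, rare chemosensory cells, are known for carrying enzymes of both routes.

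Promoter sequence is shown for the enzymes that open each route, Alox5 and Ptgs1, since both were listed at 0 in both DCS libraries, and for Hpgds around the single octamer match found among these enzymes. The sequences are from RefSeq on GRCm38.p6 and read 5′ to 3′ on the gene's strand. For Alox5 (chr6:116461179-116461428, minus strand) and Ptgs1 (chr2:36230176-36230425, plus strand) they are the 250 bases before the RefSeq start, and for Hpgds (chr6:65144886-65144915, minus strand) 30 bases that begin 185 bases before it. The GENCODE M21 gene model of Hpgds ends at 65144908, within the stretch shown, so it starts further upstream than the RefSeq one. Capitals mark matches to a GC box in Alox5 and to the octamer in Hpgds.
Alox5: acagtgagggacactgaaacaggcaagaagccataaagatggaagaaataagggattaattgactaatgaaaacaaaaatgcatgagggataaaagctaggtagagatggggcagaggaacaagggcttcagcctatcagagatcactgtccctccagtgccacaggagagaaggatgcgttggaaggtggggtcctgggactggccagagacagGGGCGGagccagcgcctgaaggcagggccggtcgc
Ptgs1: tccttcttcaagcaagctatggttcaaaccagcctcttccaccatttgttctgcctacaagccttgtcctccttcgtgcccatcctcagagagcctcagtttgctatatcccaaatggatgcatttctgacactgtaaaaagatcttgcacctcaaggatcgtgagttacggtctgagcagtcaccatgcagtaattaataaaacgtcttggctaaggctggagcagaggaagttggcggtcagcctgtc
Hpgds: ctttactctttATGCAAATacgttggacta

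Of the 9 enzymes 8 had an entry in the promoter table (Alox5ap did not). The octamer, ATGCAAAT, is the site that POU-domain factors such as the tuft cell factor Pou2f3 are known to bind. On either strand it was found before the RefSeq start of Hpgds alone, its first base at position −174. In the GENCODE M21 model of Hpgds this match lies inside the gene, after its start. The octamer was found in 1.60% of all 32851 promoter windows of 250 bases. The GC box, GGGCGG, was found before Alox5, Ptges and Hpgd and in 32.7% of all windows, and TATAAA in 1 of the 2 windows of Pla2g4a and in 12.4% of all windows. None of these 3 motifs was in the Ptgs1 window. These are matches of letters, and whether a factor binds there was not measured.

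Lgr5+ replicate 1 held 5205723 reads and replicate 2 held 7955340. Each DCS column stepped as a mean of 2 separately scaled parts does, with 5523304 and 1890960 reads in replicate 1 and 3004289 and 2443971 in replicate 2. Zeros were shared between replicates: of 14519 genes, 1641 were at 0 in both DCS libraries and 8 in 1 of them only. The same held within the parts, where 2767 genes were at 0 in the second part of both columns and 3 in that of 1 column. A listed 0 therefore need not mean that neither library had a read, and genes at 0 are given below without a fold change or p-value. The genes of the reporters followed the labels, with Reg4 at 6187 and 5899 RPM in DCS and 796 and 363 RPM in Lgr5+ libraries, and Lgr5 at 0.989 and 3.13 against 46.5 and 48.8 RPM. Among the Lgr5+ libraries, markers of other cell types were higher in replicate 1: the summed level of 20 tuft markers was 1518 RPM against 446 RPM in replicate 2, of 7 absorptive markers 829 against 159 RPM, and of 7 goblet markers 4874 against 1576 RPM. Of 5 stem cell markers it was 508 against 591 RPM.

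All 8 enzymes that were tested were higher in Lgr5+ cells, and Ptges was too low to test. The test was limma on log2(RPM + 1) for genes of at least 5 RPM in at least 2 libraries, with calls at a Benjamini-Hochberg adjusted p under 0.05 over all 10183 genes tested. Of all these genes, 34.1% were called, 26.9% higher in Lgr5+ and 7.18% higher in DCS cells. The median log2 fold change (DCS minus Lgr5+) over all genes tested was −0.47, a shift that median-of-ratios scaling moved to 0.02. However, 5 of the 8 (Alox5, Alox5ap, Ltc4s, Ptgs1 and Hpgds) passed the filter only through their Lgr5+ values, as 780 genes did, of which 628 (80.5%) were called higher in Lgr5+ cells. The count of 8 is thus a description and not support for a shift of the group. The other 3 (Pla2g4a, Lta4h and Hpgd) passed through both populations, as did 9263 genes, of which 22.8% were called higher in Lgr5+ cells. In sorted pools, fewer cells of a type and less RNA per cell cannot be told apart.

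**Figure D1:**
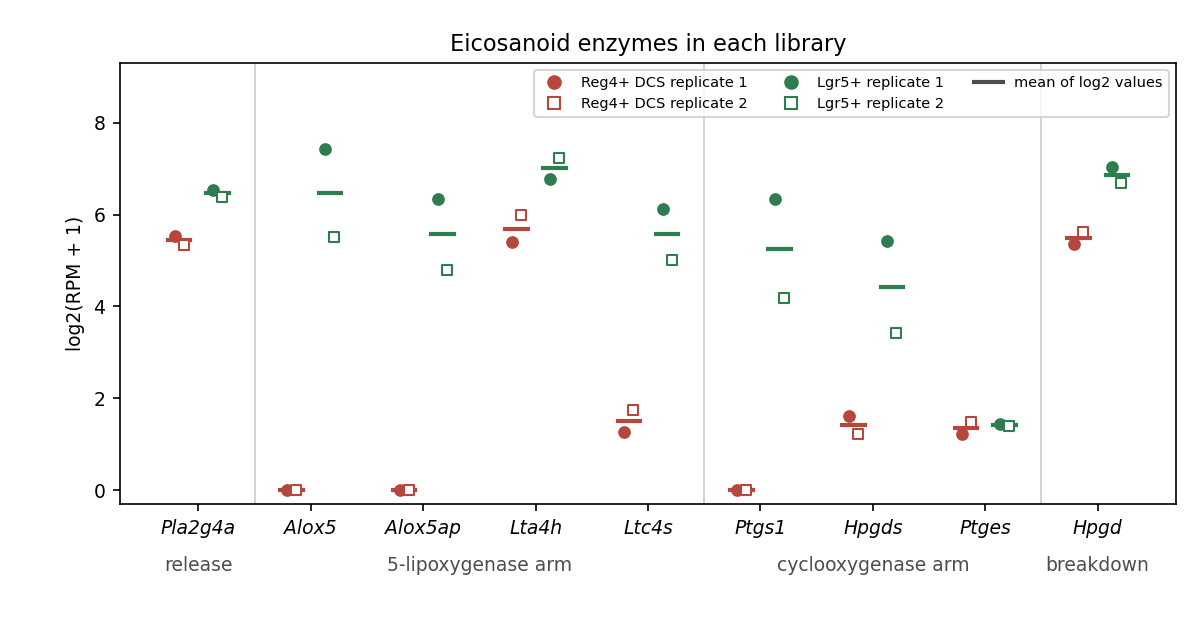
Level of each enzyme on the log2(RPM + 1) scale in every library, with circles for replicate 1, open squares for replicate 2 and bars for the mean of the log2 values. Alox5, Alox5ap and Ptgs1 sit at 0 in both DCS libraries, Ptges is low in all 4 libraries, and Pla2g4a, Lta4h and Hpgd are present in both populations.

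Release of arachidonic acid was represented by Pla2g4a, cytosolic phospholipase A2 (mm10 chromosome 1, 149829618 to 149961290, minus strand). It stood at 45.6 and 39.3 RPM in DCS libraries (290 and 214 reads) and at 92.4 and 83.1 RPM in Lgr5+ libraries (481 and 661 reads). Both Lgr5+ libraries lay above both DCS libraries, as they did for 56.2% of all genes tested. The replicates lay close together in both populations. The mean was 2.07-fold higher in Lgr5+ cells, at 87.7 ± 6.58 against 42.4 ± 4.41 RPM (mean ± SD, n = 2 per group, as below), with a log2 fold change of −1.03 (SE 0.23, adjusted p = 0.0127). Under median-of-ratios scaling it was −0.53 and not called (adjusted p = 0.131), and without DCS replicate 2 the adjusted p was 0.0531. Every p given without 1 library, here and below, rests on an arm of 1 library and on the spread of the other population alone.

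In the lipoxygenase arm, the enzyme and its partner were above 0 in the Lgr5+ libraries only. Alox5, 5-lipoxygenase (chromosome 6, 116410077 to 116461178, minus strand), was listed at 0 in both DCS libraries and stood at 172 and 44.7 RPM in Lgr5+ libraries, from 897 and 356 reads. Alox5ap, the membrane protein that hands arachidonic acid to 5-lipoxygenase (chromosome 5, 149264767 to 149288153, plus strand), was listed at 0 in both DCS libraries and stood at 80.3 and 26.6 RPM in Lgr5+ libraries, from 418 and 212 reads. For both genes Lgr5+ replicate 1 was at least 3 times as high as replicate 2. Ranked by mean Lgr5+ level, Alox5 was number 3 and Alox5ap number 6 of the 1641 genes at 0 in both DCS libraries. These genes are a small class among those tested, 66 of 10183 or 0.648%.

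The synthases at the fork of the route differed in size of change. Ltc4s, which joins glutathione to leukotriene A4 (chromosome 11, 50236461 to 50238616, minus strand), stood at 1.42 and 2.35 RPM in DCS libraries, which were 8 and 13 reads. In the Lgr5+ libraries it stood at 69.2 and 31.2 RPM, from 360 and 248 reads, well apart from both DCS values. The mean was 26.6-fold higher in Lgr5+ cells (50.2 ± 26.9 against 1.89 ± 0.661 RPM; log2 fold change −4.06, SE 0.42, adjusted p = 0.000514), and 16.5 to 36.7-fold without 1 library, lowest without Lgr5+ replicate 1. Ltc4s passed the filter only through its Lgr5+ values, a class with 80.5% called higher in Lgr5+ cells, so its p is a description. With either Lgr5+ library left out, too few values reached the filter for a test. Gm26542 is annotated antisense to Ltc4s, and the sources used here do not say whether reads were counted by strand; the same holds for Gm19719, antisense to Alox5ap.

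Lta4h, the hydrolase that makes leukotriene B4 (chromosome 10, 93453411 to 93484875, plus strand), was present in both populations. It stood at 41.2 and 62.5 RPM in DCS libraries (313 and 336 reads) and 109 and 150.1 RPM in Lgr5+ libraries (568 and 1194 reads), and here Lgr5+ replicate 2 was the higher. Under median-of-ratios scaling its log2 fold change was −0.81 (limma adjusted p = 0.0466), and by edgeR −0.91, both smaller than on the RPM scale. On the RPM scale the mean was higher in Lgr5+ cells, by 2.07 to 3.145-fold without 1 library, at 129.6 ± 29.0 against 51.8 ± 15.1 RPM (log2 fold change −1.32, SE 0.29, adjusted p = 0.0108). Its adjusted p rose to 0.0779 without DCS replicate 1.

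In the cyclooxygenase arm, Ptgs1, the constitutive cyclooxygenase (chromosome 2, 36230426 to 36252272, plus strand), was listed at 0 in both DCS libraries. In the Lgr5+ libraries it stood at 79.5 and 17.2 RPM, from 414 and 137 reads, and it was number 7 by mean Lgr5+ level among the genes at 0 in both DCS libraries. The enzymes that open both routes were thus at 0 in the same libraries, and both were highest in Lgr5+ replicate 1.

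Hpgds, the hematopoietic prostaglandin D2 synthase (chromosome 6, 65117293 to 65144908, minus strand), stood at 2.08 and 1.33 RPM in DCS and 42.3 and 9.68 RPM in Lgr5+ libraries. Its DCS reads, 23 and 8, all lay in the first part of each column, and the second part was at 0 in both. Both Lgr5+ libraries lay above both DCS libraries, as for 56.2% of all genes tested, but they differed 4.37-fold from each other. Hpgds too passed the filter only through its Lgr5+ values, and 80.5% of such genes were called higher in Lgr5+ cells. Its p is thus a description. The mean was 15.2-fold higher in Lgr5+ cells (25.97 ± 23.04 against 1.71 ± 0.531 RPM; log2 fold change −3.00, SE 0.60, adjusted p = 0.00764), a fold of 5.67 without Lgr5+ replicate 1 and 24.8 without replicate 2. The adjusted p was 0.0513 and 0.0528 without DCS replicates 1 and 2, and without either Lgr5+ library Hpgds was not tested.

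Ptges, the inducible prostaglandin E2 synthase (chromosome 2, 30889471 to 30929863, minus strand), stood at 1.35 and 1.78 RPM in DCS and 1.73 and 1.63 RPM in Lgr5+ libraries. The groups overlapped, at 9 to 13 reads in every library, a depth at which a difference of a few reads could not be told from counting error. Pseudogenes overlap Ptges (Gm13400) and Hpgds (Gm17147) in the annotation, and how reads shared with them were counted is not known here.

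Breakdown was represented by Hpgd, the dehydrogenase that inactivates prostaglandins (chromosome 8, 56294585 to 56321043, plus strand). It stood at 40.0 and 47.9 RPM in DCS libraries (342 and 260 reads) and 129 and 101 RPM in Lgr5+ libraries (674 and 807 reads). Both Lgr5+ libraries were above both DCS libraries, as for 56.2% of all genes tested. The mean was 2.63-fold higher in Lgr5+ cells, at 115 ± 19.8 against 43.9 ± 5.55 RPM (log2 fold change −1.37, SE 0.25, adjusted p = 0.00494). This call was kept under every alternative that tested it, but the size depended on scaling. The log2 fold change was −0.87 under median-of-ratios scaling and −0.86 by edgeR. The name resembles Hpgds, but the genes lie on separate chromosomes and differed in pattern: Hpgd was present in DCS cells, where Hpgds was near 0.

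The enzymes fell into 2 sets by how the Lgr5+ libraries compared with each other. Replicate 1 over replicate 2 was 4.62 for Ptgs1, 4.37 for Hpgds, 3.85 for Alox5, 3.01 for Alox5ap and 2.22 for Ltc4s. It was 1.28 for Hpgd, 1.11 for Pla2g4a and 0.727 for Lta4h. Over all genes tested the median of this ratio was 1.02, and 90 percent of genes lay between 0.650 and 2.20, so that the first 5 enzymes lay above this range and the other 3 within it. The 17 tuft markers with a mean of at least 5 RPM in Lgr5+ cells ran from 2.23 to 7.88 with a median of 3.44, and the 5 stem cell markers from 0.783 to 0.975. The 8 epithelium markers ran from 0.988 to 5.08 with a median of 1.33. Absorptive markers at that level ran from 3.08 to 10.7 and goblet markers from 1.42 to 6.19.

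**Figure D2:**
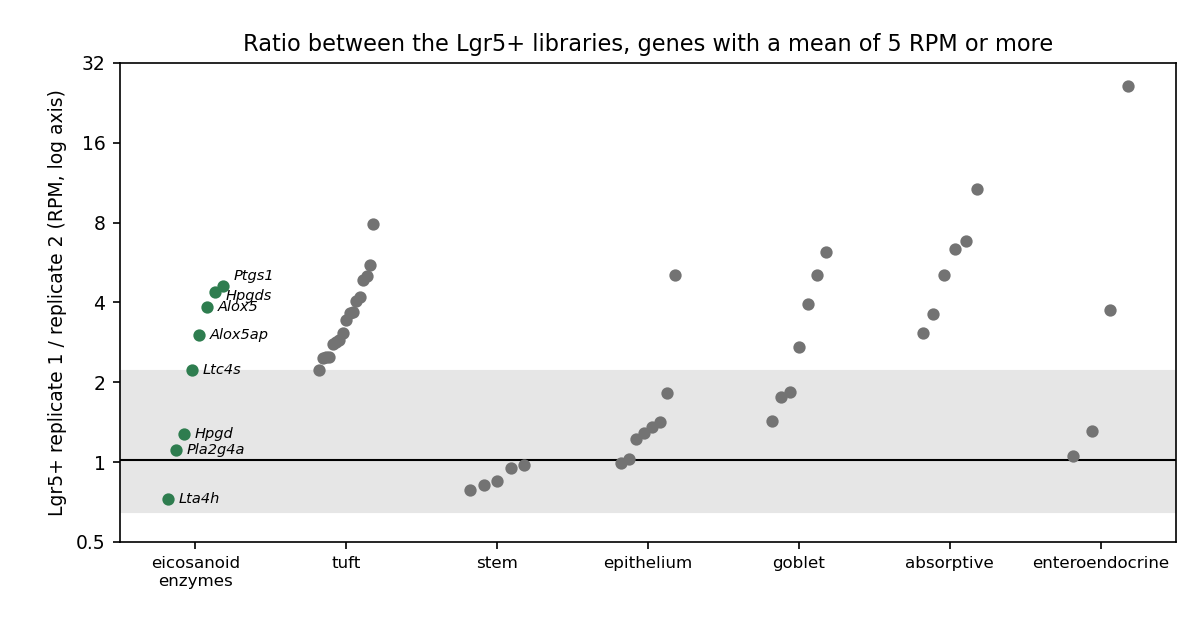
Ratio of Lgr5+ replicate 1 to replicate 2 (RPM, log axis) for eicosanoid enzymes and marker genes with a mean of at least 5 RPM in Lgr5+ cells. The line is the median of all genes tested (1.02) and the grey band spans their 5th to 95th percentile (0.650 to 2.20). Ptgs1, Hpgds, Alox5, Alox5ap and Ltc4s lie at 2.22 to 4.62, a range that holds some tuft, absorptive, goblet and enteroendocrine markers. Pla2g4a, Lta4h and Hpgd lie within the grey band, as do the stem cell markers, most epithelium markers and some goblet and enteroendocrine markers.

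Set against the summed tuft markers of the same library, Alox5 came to 11.35% and 10.03% of that sum in Lgr5+ replicates 1 and 2, Alox5ap to 5.29% and 5.97%, and Ptgs1 to 5.24% and 3.86%. Hpgds came to 2.78% and 2.17% and Ltc4s to 4.56% and 6.98%. Lta4h moved from 7.19% to 33.6%, Hpgd from 8.53% to 22.7% and Pla2g4a from 6.09% to 18.6%. These shares follow from the replicate ratios given above. The tuft sum itself was 15.2 and 14.8 RPM in DCS libraries, most of it Vav1 at 10.4 and 10.8 RPM. Gng13 was low throughout, at 0.98 and 1.11 RPM in DCS and 1.35 and 0.63 RPM in Lgr5+ libraries. In the DCS libraries 13 of the 20 markers, Pou2f3, Gfi1b and Rgs13 among them, were at 0 in both. Dclk1, a kinase that defines tuft cells, stood at 0.793 and 0.409 RPM there and at 286 and 83.2 RPM in Lgr5+ libraries. All 15 tuft markers tested were called higher in Lgr5+ cells, but 14 of them passed the filter only through their Lgr5+ values, a class with 80.5% called that way, so the count is a description. Absorptive and goblet markers were also higher in Lgr5+ replicate 1, with ratios of summed levels of 5.22 and 3.09. The part of tuft or other cells within the Lgr5+ sort in these results was not tested.

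Leukocytes also use Alox5, Alox5ap, Ltc4s and Hpgds. Of 7 leukocyte markers found, Ptprc, which is on the tuft list too, stood at 40.1 and 9.55 RPM in Lgr5+ libraries, and the other 6 summed to 6.53 and 3.77 RPM, with no single value above 2.11 RPM. The 5 macrophage and neutrophil markers found of 11 summed to 5.31 and 8.20 RPM in DCS and 17.5 and 7.17 RPM in Lgr5+ libraries. Most of that sum was Csf3r, at 14.2 and 4.40 RPM in the Lgr5+ libraries, with a ratio of replicate 1 to 2 of 3.23. Of 10 mast cell and eosinophil markers 1 was found, Tpsb2, and it was at 0 in both Lgr5+ libraries.

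Among the genes nearest to Alox5 in level and pattern, by Euclidean distance in log2(RPM + 1) over the 4 libraries, were Sh2d7 (distance 0.456) and Ly6g6f (0.613). Sh2d7 stood at 160.2 and 61.2 RPM and Ly6g6f at 217 and 64.5 RPM in Lgr5+ libraries, and both were at 0 in the DCS libraries. With 4 libraries this is a description of likeness only.

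The wider pathway held calls in both directions. Of 86 further genes of eicosanoid synthesis, transport and sensing, 56 were found and 43 tested, of which 12 were called higher in Lgr5+ and 5 higher in DCS cells. Of these calls 2 (Cyp4f14 and Mgll) passed the filter only through Lgr5+ values and 1 (Ptger3) only through DCS values, the population where each is high, so they are descriptions. The 43 had a median log2 fold change of −0.32 against −0.47 for all genes. These shares, 12 and 5 of 43, compare with 26.9% and 7.18% of all genes tested. Under median-of-ratios scaling the counts were 5 and 11, so the split between directions rests on the scaling. edgeR lost the calls of Pla2g4b (adjusted p = 0.0731), Faah (0.231), Daglb (0.1125), Cotl1 (0.1398), Ptges3 (0.0668) and Fam213b (0.10).

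Of 17 phospholipase and lysophospholipid genes tested, 3 were called higher in DCS and 5 in Lgr5+ cells. Over all genes tested these shares were 7.18% and 26.9%. Pla2g2f stood at 99.1 and 90.5 RPM in DCS and 6.34 and 5.78 RPM in Lgr5+ libraries (15.6-fold, log2 fold change 3.76, SE 0.26, adjusted p = 0.000153). Pla2g2a, which GENCODE M21 annotates as a polymorphic pseudogene, was 12.5-fold higher in DCS cells (118 and 153 against 11.7 and 9.93 RPM). Pla2g10 was 3.80-fold higher there, at 217 and 238 against 54.0 and 66.0 RPM. All 3 are secreted phospholipases, and each was also called with median-of-ratios scaling and by edgeR. Of the others of that class, Pla2g5 (log2 fold change 0.43, adjusted p = 0.256) and Pla2g12a (−0.07, adjusted p = 0.842) were not called, though Pla2g5 was called on the DCS side by edgeR (adjusted p = 0.0342) and under median-of-ratios scaling (0.0241). Pla2g2d, Pla2g3 and Pla2g12b were too low to test, below 5 RPM in all 4 libraries.

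The calls on the other side included 2 relatives of Pla2g4a within the cell. Pla2g4b was 2.43-fold (adjusted p = 0.0255) and Pla2g6, a calcium-independent phospholipase, 2.59-fold higher in Lgr5+ cells (adjusted p = 0.0163). Median-of-ratios scaling lost both calls (adjusted p = 0.0752 and 0.0686), as did leaving out DCS replicate 1 (0.118 and 0.0696), and that of Pla2g6 was also lost without Lgr5+ replicate 1 (0.0905) or 2 (0.0555). Pla2g4c had a log2 fold change of −2.03 and was not called (adjusted p = 0.0753), and its Lgr5+ libraries differed 4.69-fold from each other. Faah, Daglb and Mgll, hydrolases of endocannabinoid synthesis or breakdown, were called higher in Lgr5+ cells too. Of these, Mgll was listed at 0 in both DCS libraries and stood at 36.7 and 8.04 RPM in Lgr5+ libraries, and Faah (1.71-fold) and Daglb (2.52-fold) had adjusted p of 0.438 and 0.107 with median-of-ratios scaling and so lost their calls. Faah had an adjusted p of 0.166 without DCS replicate 1, 0.0756 without DCS replicate 2 and 0.211 without Lgr5+ replicate 2, and Daglb 0.184 without DCS replicate 1 and 0.163 without Lgr5+ replicate 1.

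**Figure D3:**
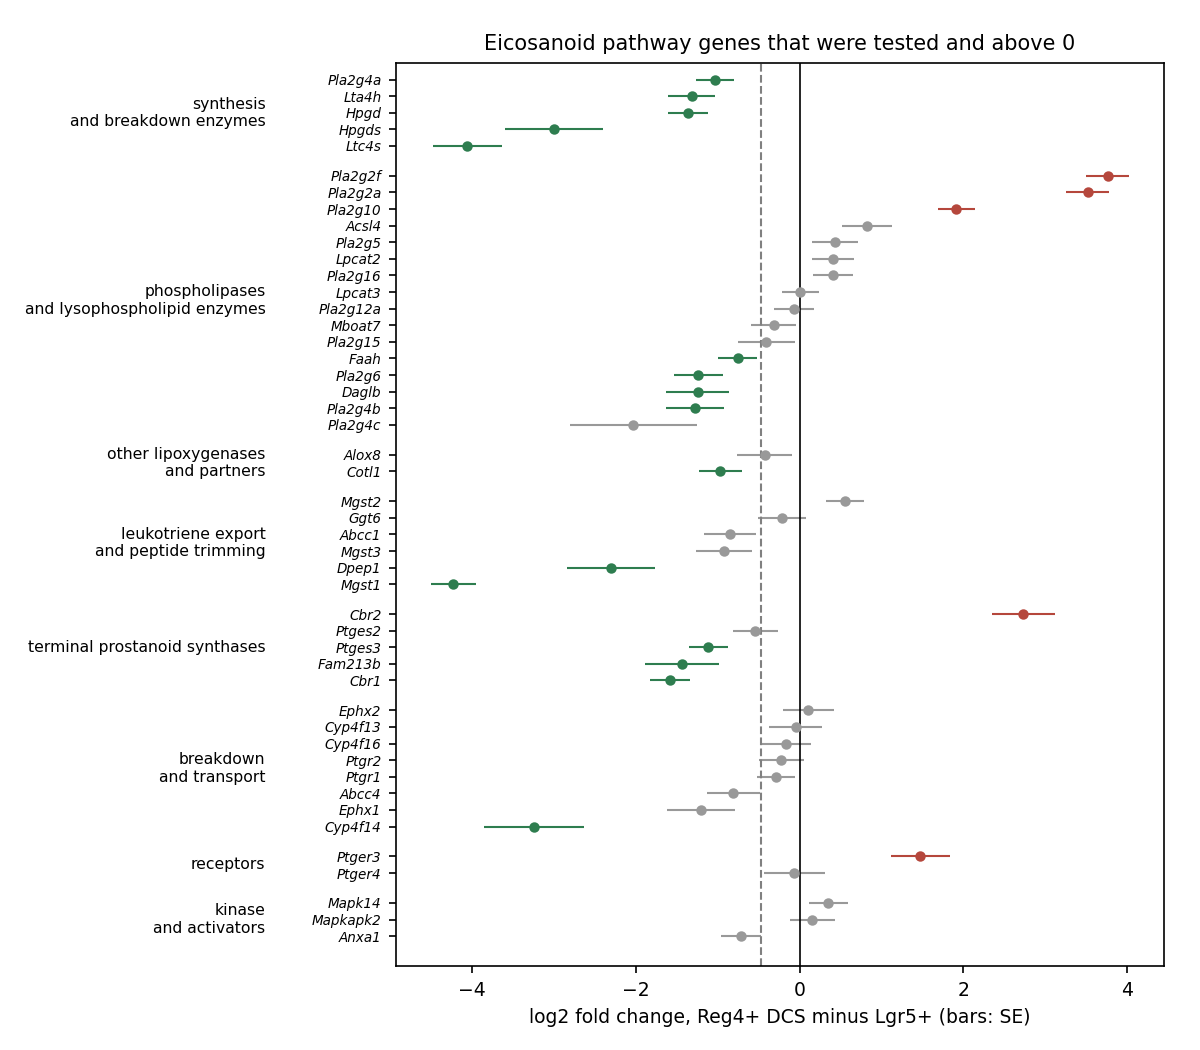
Log2 fold change (DCS minus Lgr5+, computed from log2(RPM + 1), bars are SE) of the tested pathway genes above 0 in every library, by role. Red marks genes called higher in DCS cells, green those called higher in Lgr5+ cells and grey those not called; the dashed line is the median of all genes tested (−0.47). Pla2g2f, Pla2g2a, Pla2g10, Cbr2 and Ptger3 lie on the DCS side.

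Of 6 genes of leukotriene export and peptide trimming tested, Dpep1 and Mgst1 were called, and of 8 of breakdown and transport Cyp4f14 alone. Each was called higher in Lgr5+ cells, as were 26.9% of all genes tested, so these counts are descriptions. Dpep1, a dipeptidase that trims leukotriene D4 to E4, was 6.39-fold higher in Lgr5+ cells (59.7 and 17.98 against 7.80 and 4.36 RPM, adjusted p = 0.0137). The fold was 2.96 without Lgr5+ replicate 1 and 9.83 without replicate 2, with adjusted p of 0.0533 and 0.0824 without DCS replicates 1 and 2. Cyp4f14, of a cytochrome family that hydroxylates leukotriene B4, passed the filter through Lgr5+ values only, at 34.0 and 8.80 against 1.78 and 0.371 RPM. Its mean was 19.9-fold higher in Lgr5+ cells, a fold of 8.17 without Lgr5+ replicate 1 and 57.7 without DCS replicate 1. Leaving out either Lgr5+ library put Cyp4f14 below the filter. Like Alox5, both were higher in Lgr5+ replicate 1, by 3.32-fold for Dpep1 and 3.86-fold for Cyp4f14. Cotl1, coactosin-like protein, a partner of 5-lipoxygenase, was present in both populations and 1.93-fold higher in Lgr5+ cells (adjusted p = 0.0263, and 0.185 under median-of-ratios scaling, 0.1655 without DCS replicate 1 and 0.06415 without Lgr5+ replicate 2). Abcc1, the exporter of leukotriene C4, was not called (log2 fold change −0.86, adjusted p = 0.0692).

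Of the other prostaglandin E2 synthases, Ptges3 was 2.19-fold higher in Lgr5+ cells (89.7 and 102 against 40.1 and 47.4 RPM, adjusted p = 0.00958, and 0.0664 under median-of-ratios scaling and 0.06255 without DCS replicate 1). Ptges2 was not called (log2 fold change −0.54, adjusted p = 0.151). Fam213b, a prostamide and prostaglandin F synthase, was 2.91-fold higher in Lgr5+ cells (adjusted p = 0.0402). The fold was 1.945 without DCS replicate 1 and 5.75 without DCS replicate 2. In DCS libraries Fam213b stood at 2.06 and 6.09 RPM, from 17 and 32 reads. Its adjusted p was 0.105 under median-of-ratios scaling, 0.204 without DCS replicate 1 and 0.165 without Lgr5+ replicate 2.

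Among receptors, 4 of 17 were found and 2 tested. Ptger3, a prostaglandin E2 receptor, stood at 5.61 and 5.28 RPM in DCS and 0.960 and 1.76 RPM in Lgr5+ libraries, a mean 4.01-fold higher in DCS cells. It passed the filter through its DCS values only, which lie just above the minimum of 5 RPM, and its call was lost without either Lgr5+ library (adjusted p = 0.158 and 0.0666). Ptger4, another receptor of prostaglandin E2, stood at 22.9 and 52.0 against 34.2 and 38.5 RPM, with the groups overlapping (adjusted p = 0.904).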

How the data were processed

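The authors deposited 1 table of RPM per gene for 4 libraries. Per the labels' protocols these were CEL-seq libraries read as paired ends. BWA 0.6.2-r126 and mm10 are listed, with no role, in the submitters' processing notes. How genes were counted (annotation, strand, molecular identifiers, filters) is stated nowhere in the sources used here. RPM is relative to all reads of a column, so abundant transcripts lower the others, and without molecular identifiers reads include amplification copies.

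Reads were recovered from the RPM steps: all values of the Lgr5+ columns were whole within 0.01 reads, and 99.8% and 98.6% of genes in the DCS columns were decoded uniquely into 2 parts. Means, SDs and folds are of RPM. Log2 fold changes are from limma 3.58.1 in R 4.3.3 (trend, group as the only term) on log2(RPM + 1), a scale that understates changes of low genes. The fit was tested on simulated data, which did not model the shared zeros or the 2 parts of each DCS column. Alternatives were scaling, pseudocount, filter, trend, the replicate block, edgeR 4.0.16 on the recovered reads (parts summed; 2686 of 9980 genes called) and leaving out each library. Each DCS column was counted as 1 replicate, so its spread is one of averages. Nothing in the labels says that the 2 libraries per population came from separate animals, so p-values measure the spread between libraries, which may be technical. All enzymes were described whatever their values, and of the wider list every gene called was named. Of the 3 genes nearest to Alox5 1 is not reported here. The enzymes and lists were chosen with earlier results of these data known. Coordinates are GENCODE M21 (GRCm38, the assembly of mm10).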

Additional observations from a re-analysis of the deposited data

How the results depend on the processing

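Of 8 enzymes called higher in Lgr5+ cells, 8 were called by limma without a trend, with a pseudocount of 0.1 or 5, with no filter, with the replicate block and by edgeR. Over all genes, 2645 of 10183 were called higher in Lgr5+ cells without a trend and 3084 of 14518 with no filter. With the replicate block it was 3534 of 10183 and by edgeR 1379 of 9980. The enzyme counts are descriptions, since Alox5, Alox5ap, Ltc4s, Ptgs1 and Hpgds passed the main filter only through Lgr5+ values. With a filter at 10 RPM 7 were called (Hpgds was not tested) and with median-of-ratios scaling 7 (not Pla2g4a). Without 1 library 3 to 8 could be tested and 3 to 6 were called: without either Lgr5+ library Alox5, Alox5ap, Ltc4s, Ptgs1 and Hpgds missed the filter. Pla2g4a, Lta4h, Ltc4s, Hpgds and Hpgd kept their direction in every alternative that tested them. None was called higher in DCS cells by limma, at an unadjusted p under 0.05 or by edgeR. For the wider list, the 5 genes called higher in DCS and 12 in Lgr5+ cells became 11 and 5 with median-of-ratios scaling and 9 and 6 by edgeR. Without 1 library the Lgr5+ count was 4 to 11, lowest without DCS replicate 1. The 3475 calls over all genes became 1419 to 2637 without 1 library, lowest without DCS replicate 1, and 2132 without Lgr5+ replicate 2. On the RPM scale 79.0% of all calls were higher in Lgr5+ cells, against 44.9% with median-of-ratios scaling and 51.3% by edgeR. With the replicate block there were 4444 calls over all genes. The replicate 1 minus 2 differences of both populations correlated at 0.212 across genes, and the labels do not say that a number marks a shared sort. The wider list gave 17 genes higher in Lgr5+ cells with the block. Depth limits Ptges, Ltc4s and Hpgds, at 8 to 23 reads per DCS library.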

Other observations

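Cbr1 and Cbr2 are carbonyl reductases, and Cbr1 converts prostaglandin E2 to F2-alpha. Cbr1 stood at 270 and 253 RPM in the Lgr5+ and 73.8 and 101 RPM in the DCS libraries, 2.99-fold higher in Lgr5+ cells by limma (log2 fold change −1.58, SE 0.24, adjusted p = 0.00239). Cbr2 stood at 8.64 and 4.40 RPM in the Lgr5+ and 36.8 and 59.8 RPM in the DCS libraries, 7.40-fold higher in DCS cells (log2 fold change 2.73, SE 0.38, adjusted p = 0.00173). Neither call was lost by edgeR or under median-of-ratios scaling.

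Microsomal glutathione transferases, to whose protein family Ltc4s, Alox5ap and Ptges belong, are described next. Mgst1 stood at 117 and 146 RPM in the Lgr5+ and 6.75 and 5.29 RPM in the DCS libraries, 21.8-fold apart (limma log2 fold change −4.23, SE 0.27, adjusted p = 0.000143), and Lgr5+ replicate 2 was the higher, unlike for Ltc4s and Alox5ap. Mgst2, which can also make leukotriene C4, stood at 83.2 and 91.4 RPM in the Lgr5+ and 113 and 145 RPM in the DCS libraries. It was not called on the RPM scale (log2 fold change 0.55, adjusted p = 0.0998), but it passed on the DCS side by edgeR (adjusted p = 0.00906) and under median-of-ratios scaling (adjusted p = 0.00723). Mgst3 was not called (log2 fold change −0.92, adjusted p = 0.0660).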
